A study of Mus musculus with 15 samples.

Results

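The response shared by nintedanib and B20, which block the formation of tumour blood vessels, was described in mouse mammary tumours by setting the arrays of both drug groups together against the vehicle arrays. These were 8 drug arrays, 4 of nintedanib and 4 of B20, and 3 vehicle arrays, 11 of the 15 arrays in the series. The other 4 were labelled as taken before any treatment (T0), though T0 replicate 4 also carries a vehicle label. They stand outside the comparison and enter its test only through the estimate of the spread. All groups were female MMTV-PyMT mice, vehicle and T0 included: a mammary promoter drives the polyoma middle T oncogene, and carcinomas form in the gland. Nintedanib was given by oral gavage at 85 mg per kg per day, B20-4.1.1 was injected intraperitoneally at 5 mg per kg, 2 times per week, and dosing began at 7 weeks of age. The labels give neither the age at the end of treatment nor the route and composition of the vehicle. Nor do they say whether the arrays of a group hold different mice, and p-values therefore speak only of the spread among these arrays, part of which may be technical. A gene was counted as shared when every drug array lay above every vehicle array, or every drug array below every vehicle array. That rule picks genes by their measured levels, so the levels of the genes it picked are descriptions.

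B20 is an antibody that binds the growth factor VEGF, and nintedanib is a small molecule that blocks the kinases of the VEGF, FGF and PDGF receptors. Endothelial cells of tumour vessels depend on VEGF, and tumours that lose vessels can become short of oxygen and nutrients. Interferons are cytokines released on viral infection or by activated lymphocytes. Their receptors signal through JAK kinases to STAT and IRF transcription factors, which switch on antiviral enzymes, immune GTPases, antigen presentation and chemokines in most cell types, tumour epithelium included.

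Levels are given as log2 spot signal relative to the 75th percentile of the array, so differences between groups are log2 differences, each with the standard error (SE) of the fit. Between 59.3% and 68.1% of probes stood well above background on the 8 drug arrays, against 57.9% to 65.0% on the 3 vehicle arrays. The luminal markers of the labelled tissue were strongly detected: Krt18, a keratin of luminal cells, averaged 8.46 on the drug arrays and 8.40 on the vehicle arrays, and Epcam, an epithelial adhesion protein, averaged 4.45 and 4.15. The 11 arrays lay on 2 slides, one with nintedanib 1 to 3, B20 1 to 3 and vehicle 1 and 2, the other with nintedanib 4, B20 4 and vehicle 3. In bulk tissue, fewer cells of a type and less RNA per cell cannot be told apart.

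Of 28029 genes and unnamed transcripts tested, limma called 0 between both drugs and vehicle at an adjusted p under 0.05 (percent called 0), and 908 had an unadjusted p under 0.05. At that unadjusted p, 1401 genes would be expected by chance in each comparison. The lowest adjusted p was 0.107. The median difference over all genes was 0.01 with a median SE of 0.26, and 52.6% of genes stood higher in the drug arrays. Nintedanib alone against vehicle and B20 alone against vehicle gave 0 calls each with limma, with 1353 and 912 genes at an unadjusted p under 0.05. These comparisons share the 3 vehicle arrays. Between nintedanib and B20, limma called 0 genes, with 2629 at an unadjusted p under 0.05 and a lowest adjusted p of 0.517.

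By level alone, 197 genes (0.703% of those tested) stood higher on all 8 drug arrays than on all 3 vehicle arrays, and 153 (0.546%) stood lower. Arrays in random order would separate genes at shares of this size, so the counts alone are not read as a response. The 197 higher genes had a median difference of 0.94, and 86 of them exceeded 1. The 153 lower genes had a median of -0.41, and 13 of them lay beyond 1. With another background correction, normexp, these medians were 0.42 and -0.33. On all 8 drug arrays, 156 of the 197 higher genes were well above background. For 40 of the higher genes at least 1 drug array but no vehicle array was well above background. For 1 of the lower genes at least 1 vehicle array but no drug array was. The sizes of those differences are not measured. A symbol could be given to 131 of the higher and 99 of the lower genes. The difference was larger with nintedanib for 125 of the 197 and larger with B20 for 72, and of the 153 lower genes it was larger with nintedanib for 86 and with B20 for 67. No gene of either set differed between the drugs at an adjusted p under 0.05 with limma, and 6 higher and 1 lower had an unadjusted p under 0.05. At the edge of the rule, among genes with a symbol, Cxcl10 was just inside, its nearest drug and vehicle arrays 0.0011 apart, and Retn just outside with an overlap of 0.00016. Among lower genes, Cdt1 was just inside by 0.0014 and Phtf1 just outside by 0.00016.

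Of the 197 higher genes, 36 belonged to one of the gene lists used, and 28 of these 36 to the interferon response. Of 40 interferon response genes written down, 38 were measured, 37 stood higher in the drug arrays and 28 did so on every drug array against every vehicle array, against 0.703% of all genes. Their median difference was 1.37, against 0.01 over all genes, with 1.55 for nintedanib and 1.22 for B20, and 0 of the 38 passed the adjusted threshold. The list was chosen with earlier results of these data known. Its members were read on the same arrays and are not independent of each other, so the counts are descriptions. The mean level of the list was 2.24, 1.49, 1.49 and 1.73 on the nintedanib arrays, 1.33, 1.60, 1.47 and 1.51 on the B20 arrays, and 0.58, -0.09 and 0.41 on the vehicle arrays. Each drug array stood above each vehicle array, with nintedanib replicate 1 the highest and the B20 arrays close together. Before treatment the list mean was 0.66, 0.20, 0.64 and 1.44. The last of these arrays, T0 replicate 4, carries both a before-treatment and a vehicle label.

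**Figure D1:**
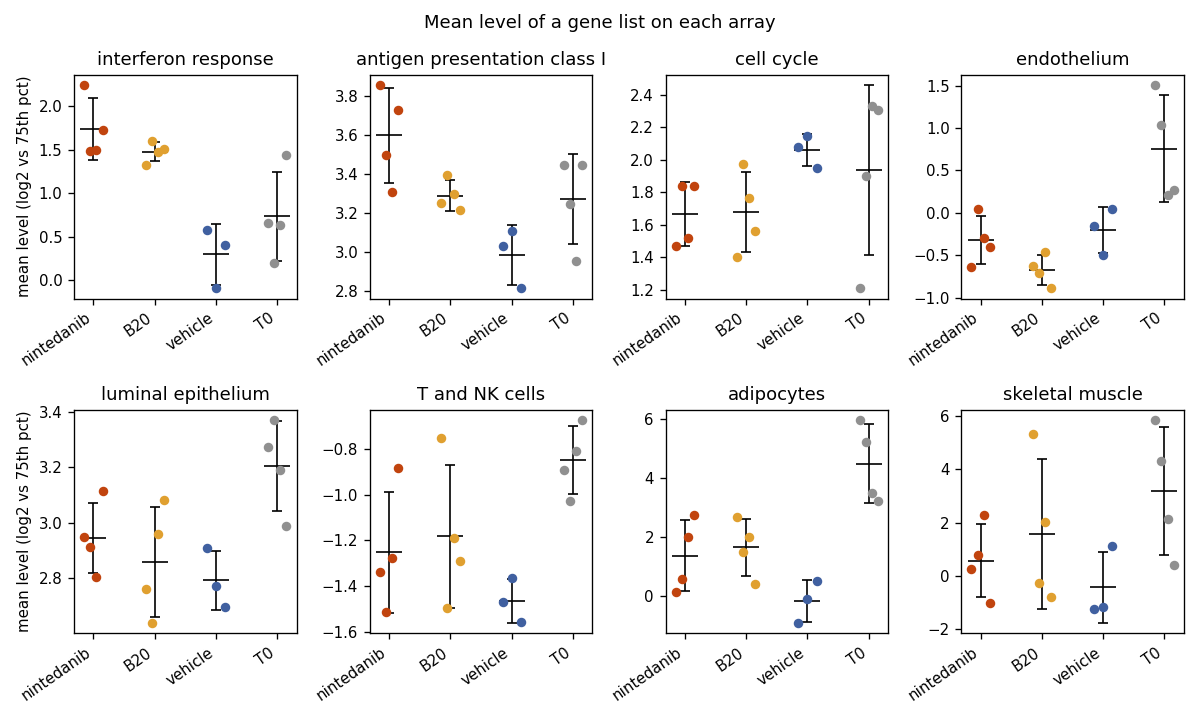
Mean log2 level of the members of a gene list on each array, relative to the 75th percentile of the array. Points are arrays, bars are group means with SD, and groups are nintedanib, B20, vehicle and T0. The interferon response list separates the 8 drug arrays from the 3 vehicle arrays (vehicle at most 0.58), while the adipocyte list does not and is highest in T0.

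Of the 15 higher genes of lowest p, 12 had a promoter given and 8 of these held a match to the core that interferon-activated factors are known to bind, of which 5 are shown. The searched letters were GAAANNGAAA on both strands, from 250 bases before to 50 bases after each start, and matches are in capitals. Sequences are RefSeq's on GRCm38.p6, read 5′ to 3′ on the gene's strand.
Ifit3, chr19:34583279-34583578, plus strand: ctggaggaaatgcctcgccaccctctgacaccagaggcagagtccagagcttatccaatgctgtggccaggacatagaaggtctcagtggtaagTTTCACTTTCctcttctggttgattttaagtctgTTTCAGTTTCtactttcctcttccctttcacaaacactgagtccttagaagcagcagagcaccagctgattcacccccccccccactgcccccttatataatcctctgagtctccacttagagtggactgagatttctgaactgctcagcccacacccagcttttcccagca
Ifit3b, chr19:34607707-34608006, plus strand: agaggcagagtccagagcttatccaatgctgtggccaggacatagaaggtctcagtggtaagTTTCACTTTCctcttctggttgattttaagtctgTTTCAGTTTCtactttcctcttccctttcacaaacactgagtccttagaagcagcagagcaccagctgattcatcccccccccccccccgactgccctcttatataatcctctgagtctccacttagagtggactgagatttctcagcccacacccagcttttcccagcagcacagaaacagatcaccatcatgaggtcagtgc
Trim30a, chr7:104465144-104465443, minus strand: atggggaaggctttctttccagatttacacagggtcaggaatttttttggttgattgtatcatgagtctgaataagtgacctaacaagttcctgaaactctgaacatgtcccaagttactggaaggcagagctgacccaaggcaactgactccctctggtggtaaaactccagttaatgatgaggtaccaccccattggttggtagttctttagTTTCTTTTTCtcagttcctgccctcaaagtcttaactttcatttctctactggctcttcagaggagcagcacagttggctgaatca
Igtp, chr11:58199306-58199605, plus strand: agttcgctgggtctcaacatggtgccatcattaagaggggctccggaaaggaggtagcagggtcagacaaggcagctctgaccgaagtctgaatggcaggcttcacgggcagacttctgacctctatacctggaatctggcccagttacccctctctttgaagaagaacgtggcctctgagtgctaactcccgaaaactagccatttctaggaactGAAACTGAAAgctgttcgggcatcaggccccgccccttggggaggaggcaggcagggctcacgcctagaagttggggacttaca
Gbp3, chr3:142559794-142560093, plus strand: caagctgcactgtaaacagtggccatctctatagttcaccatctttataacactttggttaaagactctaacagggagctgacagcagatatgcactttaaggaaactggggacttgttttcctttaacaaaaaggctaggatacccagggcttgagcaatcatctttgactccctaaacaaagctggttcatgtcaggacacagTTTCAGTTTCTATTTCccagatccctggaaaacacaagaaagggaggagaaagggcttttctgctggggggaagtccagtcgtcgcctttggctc
Ifit3 and its neighbour Ifit3b each held 2 matches at the same distance from each other. Trim30a held 1 match that began 36 bases before the start and Igtp 1 that began 34 bases before it. In Gbp3 the 2 matches overlapped each other.

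A promoter of this kind was given for 94 of the 197 higher genes, 84 of the 153 lower genes and 12775 of all genes tested. A match to GAAANNGAAA was present in 27 of the 94 higher genes (28.7%), in 3 of the 84 lower genes (3.57%) and in 485 of all 12775 (3.80%). Among the 72 higher genes outside the interferon response list the share was 16.7% (12 genes), and within that list 62.1% (18 of 29). A second motif, TTCNNNGAA, whose letters can overlap the first, was present in 11.7% of the higher genes, 3.57% of the lower genes and 8.68% of all. These matches are descriptions of letters and not of binding.

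Among the transcription factors of the pathway, Irf7, which amplifies type I interferon production, had levels of 3.05, 2.40, 2.36 and 3.19 with nintedanib, 2.31, 2.61, 1.94 and 1.86 with B20, and 1.42, -0.16 and 0.08 with vehicle. The difference was 2.02 ± 0.39 (SE; 4.05-fold), with an adjusted p of 0.296 from limma. The lowest drug array stood above the highest vehicle array, and the vehicle arrays were far apart, with replicate 1 the highest. Irf9, a DNA-binding subunit of the transcription complex that type I interferons activate, had levels of 3.98, 3.59, 3.67 and 3.77 with nintedanib, 3.77, 3.72, 3.75 and 3.81 with B20, and 3.14, 3.12 and 3.20 with vehicle. Its difference was smaller, 0.60 ± 0.15 (adjusted p 0.654), and its arrays were tight within each group. Stat2, of the same complex, differed by 0.55 ± 0.26 and overlapped between the groups. Isg20, an interferon-induced RNA exonuclease, was the 1 member of the list that stood lower, by -0.37 ± 0.39, and stood 0.06 higher with its probes averaged.

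The antiviral enzymes and RNA-binding proteins had some of the largest differences in the list. Oas2, a synthetase of the messenger that activates the ribonuclease RNase L, had levels of 4.53, 3.30, 2.31 and 3.0 with nintedanib, 2.42, 2.34, 2.84 and 2.59 with B20, and 0.88, -0.55 and 0.89 with vehicle. It differed by 2.51 ± 0.48 (5.71-fold; adjusted p 0.291). No drug array reached the vehicle range, and nintedanib replicate 1 was the highest of the 11. Oas1a and Oasl2 of the same family differed by 1.92 ± 0.39 and 2.10 ± 0.44, and Oas3 by 1.68 ± 0.61 with overlap. Ifit3, which belongs to a family that binds foreign RNA, had levels of 2.63, 1.33, 1.52 and 1.88 with nintedanib, 1.02, 1.71, 1.57 and 1.58 with B20, and -0.11, -1.32 and 0.04 with vehicle, a difference of 2.12 ± 0.40 (adjusted p 0.291). Ifit3b differed by 2.28 ± 0.40 and Ifit1 by 1.71 ± 0.43, both without overlap. Ifit3 and Ifit3b, like Oas1a and Oas1f (1.89), are close copies whose probes may hybridise to each other's transcripts, and Apol9a (2.15 ± 0.42) and Apol9b (2.25 ± 0.45) are such a pair too.

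Xaf1, an interferon-induced promoter of apoptosis, had levels of 3.05, 2.22, 2.59 and 2.50 with nintedanib, 2.29, 2.69, 2.29 and 2.55 with B20, and 1.34, 0.59 and 0.78 with vehicle, and differed by 1.62 ± 0.27 (3.08-fold; adjusted p 0.148). The drug arrays lay well clear of the vehicle arrays. Cmpk2, a mitochondrial nucleotide kinase induced by interferon, had levels of 0.61, 0.02, 0.04 and 0.20 with nintedanib, -0.23, 0.05, 0.26 and 0.53 with B20, and -0.82, -0.89 and -0.56 with vehicle, and differed by 0.94 ± 0.19 (adjusted p 0.296). Isg15, a ubiquitin-like modifier, and Usp18, the protease that removes it, differed by 1.68 ± 0.41 and 2.01 ± 0.44. Bst2, which tethers budding virus, differed by 1.46 ± 0.34, and Rsad2, an antiviral enzyme that makes a chain-terminating nucleotide, by 1.67 ± 0.44. None of the vehicle arrays reached the drug arrays for these 4 genes.

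Several interferon-inducible GTPases, which attack intracellular pathogens, were among the genes that separated the groups. Iigp1 had levels of 1.31, 0.67, 1.13 and 1.14 with nintedanib, 0.78, 1.01, 1.06 and 1.38 with B20, and -0.03, -0.53 and -0.0020 with vehicle. It differed by 1.25 ± 0.19 (2.38-fold; adjusted p 0.107), and the drugs gave nearly the same difference, 1.25 each. Igtp had levels of 3.75, 3.22, 2.97 and 3.19 with nintedanib, 2.68, 2.76, 2.80 and 2.80 with B20, and 2.29, 1.30 and 1.38 with vehicle, a difference of 1.37 ± 0.26 (adjusted p 0.291). Here all 4 nintedanib arrays lay above all 4 B20 arrays, while the fitted difference between the drugs, 0.52, had a 95% interval of -0.07 to 1.11. Irgm2 differed by 1.07 ± 0.22, Irgm1 by 0.60 ± 0.22, Gbp2 by 0.80 ± 0.20 and Gbp3 by 1.37 ± 0.26, all without overlap. Gm4951, an unlisted GTPase gene of the same kind, had levels of 0.85, -0.11, 0.07 and -0.01 with nintedanib, -0.02, -0.30, 0.44 and 0.52 with B20, and -1.03, -1.93 and -1.19 with vehicle, and differed by 1.57 ± 0.26 (adjusted p 0.148). Gbp genes resemble each other, so their probes may share signal.

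Trim30a, a regulator of innate signalling, had levels of 0.52, -0.38, -0.61 and -0.30 with nintedanib, -0.87, -0.63, -0.83 and -0.92 with B20, and -1.78, -2.17 and -2.09 with vehicle, a difference of 1.51 ± 0.27 (adjusted p 0.202). Its difference was 1.82 with nintedanib and 1.20 with B20, and the gap between the drugs, 0.62, had a 95% interval of 0.02 to 1.22. For Oasl2 that gap was 1.06 with an interval of 0.07 to 2.04, for Oas2 0.74 with -0.35 to 1.82 and for Irf7 0.57 with -0.31 to 1.45. None of these gaps passed the adjusted threshold over all genes. Of the cytosolic RNA and DNA sensors, Ifih1 differed by 0.73 ± 0.18, Dhx58 by 1.11 ± 0.25 and Zbp1 by 0.95 ± 0.32 without overlap, and Ddx58 by 0.44 ± 0.21 with overlap.

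Some interferon-inducible genes outside the list separated the groups too, and were chosen for naming after their values were seen. Adar, the double-stranded RNA editing enzyme, had levels of 2.17, 1.98, 1.73 and 2.18 with nintedanib, 1.69, 1.79, 1.86 and 1.96 with B20, and 1.58, 1.16 and 1.06 with vehicle, a difference of 0.65 ± 0.18. The immune GTPases Ifi47 and Tgtp2 differed by 0.94 ± 0.22 and 1.12 ± 0.32. Parp12, an ADP-ribosyltransferase, and Herc6, the mouse ligase for Isg15, differed by 1.13 ± 0.30 and 0.86 ± 0.28.

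Ubd and Gbp2b were dim. Ubd, a ubiquitin-like protein induced by interferon gamma, was not well above background on any of the 3 vehicle arrays and was so on all 8 drug arrays. Its levels were -4.53, -5.08, -4.15 and -4.70 with nintedanib, -3.53, -4.57, -4.12 and -4.36 with B20, and -6.45, -5.79 and -6.62 with vehicle. In the processed signal the drug arrays were at least 1.92-fold higher, a bound that does not hold after normexp. That bound sets them against the dimmest level counted as well above background on each vehicle array, or the Ubd level where brighter. The adjusted p from limma was 0.107. Before treatment Ubd was higher still, at -2.99 to -2.03. Gbp2b was above background on 1 of 3 vehicle arrays and differed by 2.12 ± 0.36 (adjusted p 0.2). After normexp the differences were 0.24 for Ubd and 0.40 for Gbp2b.

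**Figure D2:**
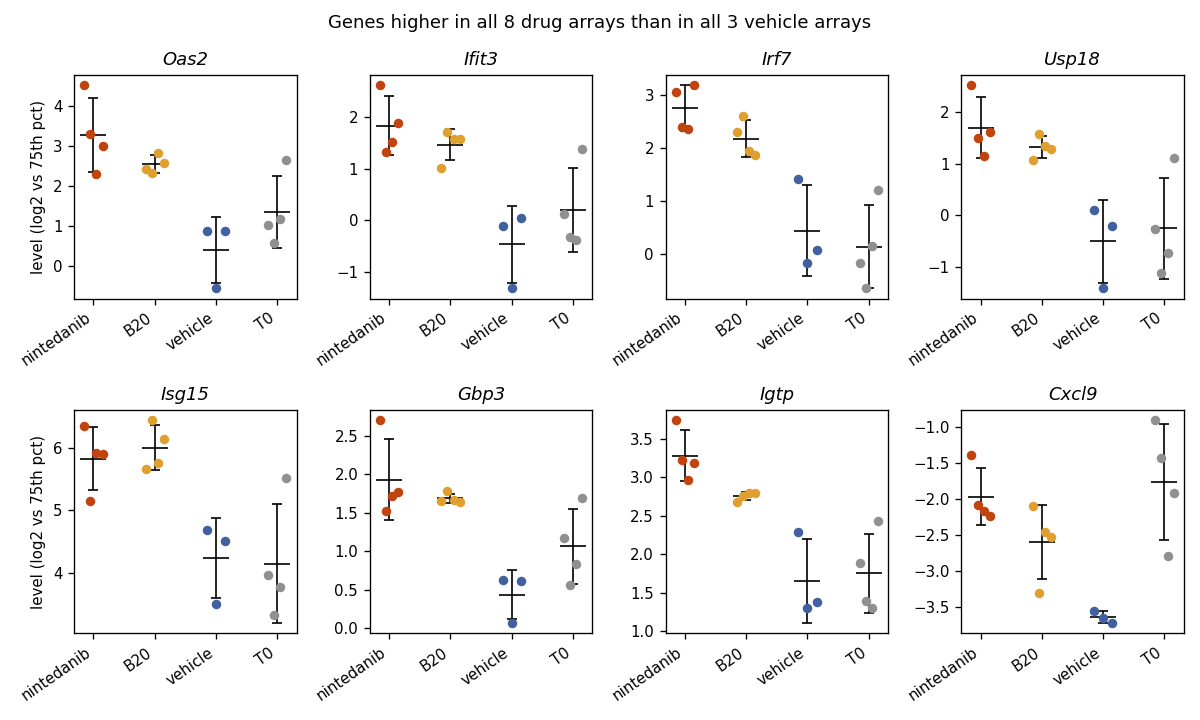
Log2 level of 8 of the genes that stood higher on all drug arrays, relative to the 75th percentile of the array. Points are arrays, bars are group means with SD, and groups are nintedanib, B20, vehicle and T0. No vehicle point reaches a drug point, and the T0 points lie within, below or above them depending on the gene.

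The interferons, their receptors and the JAK kinases formed a list of their own. Of 14 such genes, 12 were measured, 8 stood higher and 4 lower, and none separated the groups, against 0.703% and 0.546% of all genes. At those shares a list of 12 genes would mostly have none. Their median difference was 0.08. Ifng, the type II interferon made by lymphocytes, was well above background on 5 of 8 drug arrays and on 0 of 3 vehicle arrays, and its levels overlapped, at -4.99, -5.18, -4.90 and -4.67 with nintedanib, -4.42, -6.41, -5.79 and -5.13 with B20, and -6.48, -5.43 and -6.06 with vehicle. Its fitted difference was 0.80, and 0.09 after normexp. With arrays of both groups not above background, its size is not measured. The adjusted p from limma was 1. Ifnar1, a subunit of the type I receptor, had levels of 1.62, 2.20, 1.59 and 1.90 with nintedanib, 1.32, 1.15, 1.66 and 1.30 with B20, and 2.0, 1.77 and 1.63 with vehicle, a difference of -0.21 ± 0.16. Ifna4 and Ifnb1 were not measured above the filter.

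Antigen presentation and chemokine genes leaned the same way with smaller or more scattered differences. Of 14 class I genes, 13 stood higher, with a median of 0.53, and 2 separated the groups, against 0.703% of all genes. Psmb9, an immunoproteasome subunit, had levels of 3.48, 3.08, 3.09 and 3.44 with nintedanib, 3.09, 3.39, 2.95 and 2.79 with B20, and 2.53, 2.71 and 2.42 with vehicle, a difference of 0.61 ± 0.20 (adjusted p 1). H2-K1, a class I heavy chain, had levels of 7.52, 7.13, 6.75 and 7.37 with nintedanib, 6.78, 7.16, 6.86 and 6.76 with B20, and 6.57, 6.67 and 6.31 with vehicle, a difference of 0.52 ± 0.21. The mean level of the class I list was 3.86, 3.50, 3.31 and 3.73 with nintedanib, 3.25, 3.40, 3.30 and 3.21 with B20, and 3.03, 3.11 and 2.81 with vehicle, again without overlap. For both genes the lowest drug array stood only just above the highest vehicle array. B2m, Tap1 and Psmb8 differed by 0.74 ± 0.23, 0.87 ± 0.28 and 0.70 ± 0.26 with overlap. All 10 class II genes stood higher with both drugs together, with a median of 0.45, 8 with nintedanib and 9 with B20. Of the 10, 1 separated the groups, against 0.703% of all genes. It was H2-DMb1, which helps load peptides, with a difference of 0.61 ± 0.16. The class II list means overlapped, at 0.88 on the lowest drug array and 1.11 on the highest vehicle array.

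Of 16 measured chemokine genes, 15 stood higher with a median of 0.80, which was 0.43 after normexp and 0.44 without vehicle replicate 2. Of these genes, 2 separated the groups, against 0.703% of all genes. Cxcl9, which draws activated T cells, had levels of -1.39, -2.08, -2.17 and -2.23 with nintedanib, -2.10, -3.31, -2.46 and -2.54 with B20, and -3.56, -3.65 and -3.72 with vehicle, a difference of 1.36 ± 0.34 (adjusted p 0.654). Cxcl10, a ligand of the same receptor, had levels of -0.86, -1.25, -1.82 and -1.20 with nintedanib, -2.41, -2.01, -2.17 and -1.87 with B20, and -2.41, -3.43 and -3.54 with vehicle, a difference of 1.43 ± 0.49. B20 replicate 1 and vehicle replicate 1 stood at nearly the same level of Cxcl10, and after normexp the differences were 0.63 for Cxcl9 and 0.67 for Cxcl10.

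Markers of the cells that could carry such transcripts were read on the same arrays. The T and NK cell list (17 measured of 21) had means of -1.51 to -0.88 with nintedanib, -1.50 to -0.75 with B20 and -1.56 to -1.37 with vehicle, so the groups overlapped, and 12 of the 17 stood higher with a median of 0.35. That median was 0.03 on the slide of 8 arrays and 0.45 on the slide of 3, 0.16 after normexp, and 0.17, 0.17 and 0.19 without B20 replicate 1, vehicle replicate 3 and nintedanib replicate 4. Cd3g, a subunit of the T cell receptor complex, differed by 0.95 ± 0.35 and Zap70, a kinase of that complex, by 0.51 ± 0.21, both with overlap. The macrophage list (17 of 19) had means of 2.26 to 2.73 with nintedanib, 2.15 to 2.79 with B20 and 2.24 to 2.64 with vehicle, and 16 of its genes stood higher with a median of 0.15. Of 8 measured B and plasma cell genes, 1 separated the groups, against 0.703% of all genes. It was Cd79b, a subunit of the B cell receptor, with levels of -2.61, -2.68, -1.39 and -2.04 with nintedanib, -1.77, -2.86, -1.95 and -2.35 with B20, and -3.63, -3.01 and -3.30 with vehicle, a difference of 1.11 ± 0.32 (0.50 after normexp). Its partner Cd79a differed by -0.17 ± 0.36. The neutrophil list had a median of 0.48, with 0.80 on the slide of 8 arrays and -0.32 on the slide of 3. The part of these cells in the interferon genes was not tested.

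The adipocyte list stood higher too and is set beside the interferon genes for that reason. Of 17 genes, 16 stood higher with a median of 1.77 (1.41 with nintedanib and 1.96 with B20, 2.17 and 0.91 on the slides of 8 and 3 arrays). None separated the groups, against 0.703% of all genes. The list mean was 0.16, 0.59, 2.02 and 2.75 with nintedanib, 2.67, 1.51, 2.01 and 0.41 with B20, and -0.91, -0.09 and 0.52 with vehicle. Nintedanib replicate 1 and B20 replicate 4 lay within the vehicle range. The part of fat tissue in the interferon genes was not tested. Retn, the adipokine resistin, differed by 2.99 ± 0.88 and Cidec, a lipid droplet protein, by 2.51 ± 0.79, both with overlap. The T0 arrays were far higher, at 3.23 to 5.96. Skeletal muscle genes differed by a median of 1.59 (18 of 18 higher), but by 3.04 on the slide of 8 arrays and -2.35 on the slide of 3, and B20 replicate 1 stood at a list mean of 5.34 against -1.24 to 1.12 with vehicle. Erythroid genes (4 of 4 higher, median 1.09) overlapped between the groups.

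Genes of DNA replication and mitosis stood lower in the drug arrays, by less than the interferon genes stood higher. Of 38 measured cell cycle genes, 37 stood lower, with a median of -0.44 (-0.43 with nintedanib, -0.42 with B20), and 8 separated the groups, against 0.546% of all genes. The list mean was 1.47, 1.84, 1.52 and 1.84 with nintedanib, 1.40, 1.97, 1.77 and 1.56 with B20, and 2.08, 2.15 and 1.95 with vehicle. B20 replicate 2 lay within the vehicle range and the other 7 drug arrays lay below it. The T0 arrays ranged over 1.21 to 2.33. None of these genes passed the adjusted threshold, and 11 of the 38 had an unadjusted p under 0.05. This list too was chosen with earlier results known, and its members are not independent of each other.

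Among the replication genes, Mcm7, a subunit of the helicase that opens DNA at replication origins, had levels of 3.62, 3.97, 3.50 and 3.86 with nintedanib, 3.45, 3.89, 3.94 and 3.79 with B20, and 4.07, 4.29 and 4.25 with vehicle, a difference of -0.45 ± 0.17 (adjusted p 1). Mcm3 of the same helicase had levels of 1.72, 2.21, 1.43 and 1.91 with nintedanib, 1.55, 1.79, 2.14 and 1.91 with B20, and 2.40, 2.34 and 2.40 with vehicle, a difference of -0.55 ± 0.21. Mcm2 differed by -0.50 ± 0.21, and for all 3 the vehicle arrays sat just above the highest drug arrays. Cdt1, which loads the helicase, differed by -0.48 ± 0.21. Mcm4, Mcm5 and Mcm6 differed by -0.43, -0.36 and -0.51 and overlapped, and Pcna, the sliding clamp of DNA polymerase, differed by -0.06 ± 0.26.

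Of the mitotic genes, Kif11, a kinesin that separates the spindle poles, had levels of -0.62, -0.67, -0.61 and -0.60 with nintedanib, -0.80, -0.29, -0.07 and -0.29 with B20, and -0.06, 0.28 and 0.33 with vehicle. It differed by -0.68 ± 0.23 (1.60-fold lower; adjusted p 1), and B20 replicate 3 and vehicle replicate 1 stood next to each other. Cdc20 and Ube2c, which act in the destruction of mitotic cyclins, differed by -0.40 ± 0.20 and -0.60 ± 0.27 without overlap, and Kif20a by -0.50 ± 0.28. Mki67, the proliferation marker Ki-67, and Ccna2, cyclin A2, differed by -0.51 ± 0.23 and -0.49 ± 0.21 with overlap. Gins2 was the 1 listed gene that stood higher, by 0.21 ± 0.42.

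Outside the list, some of the 153 lower genes (0.546% of those tested) are known for DNA repair. No list of repair genes was counted, so those that did not separate the groups are not shown and no share can be given. Fanci, of the Fanconi anaemia pathway of crosslink repair, had levels of -0.46, -0.35, -0.85 and -0.54 with nintedanib, -0.75, -0.41, -0.18 and -0.25 with B20, and 0.13, 0.06 and 0.22 with vehicle, a difference of -0.61 ± 0.19 (adjusted p 1). Rad50, of the complex that senses broken DNA ends, had levels of 1.28, 1.39, 1.14 and 1.22 with nintedanib, 1.27, 1.33, 1.36 and 1.34 with B20, and 1.59, 1.65 and 1.62 with vehicle, a difference of -0.33 ± 0.11. The Rad50 arrays of each group lay close together. Hrob, which recruits a repair helicase, differed by -0.61 ± 0.21. Msh6, which recognises mismatched bases, differed by -0.30 ± 0.16 and Blm, a helicase of recombination repair, by -0.37 ± 0.17. The replication genes Fen1, Pola1, Dbf4 and Cdc25a, none of them in the cell cycle list, separated the groups by -0.40 ± 0.20, -0.34 ± 0.21, -0.36 ± 0.24 and -0.42 ± 0.17. Fen1 trims Okazaki fragments, Pola1 is the catalytic subunit of the primase polymerase, Dbf4 activates a kinase of origin firing and Cdc25a is a phosphatase that activates cyclin-dependent kinases. The mitotic genes Cenpe, Prc1 and Ncaph differed by -0.48 ± 0.21, -0.51 ± 0.22 and -0.56 ± 0.22. Msh6, Blm and these 7 genes were chosen for naming after their values were seen.

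**Figure D3:**
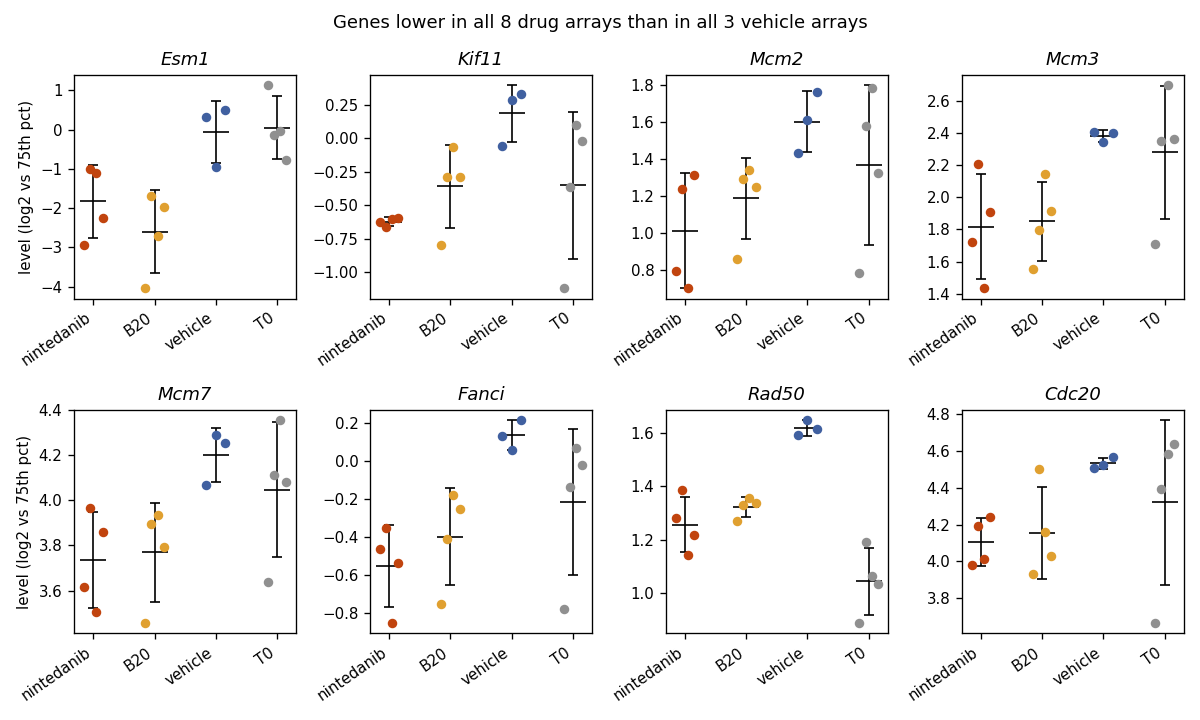
Log2 level of 8 of the genes that stood lower on all drug arrays, relative to the 75th percentile of the array. Points are arrays, bars are group means with SD, and groups are nintedanib, B20, vehicle and T0. Vehicle points lie above every drug point in each panel, with the narrowest gaps for Kif11 and Cdc20, and T0 points are spread widely except for Rad50, where most lie below the drug points.

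The vessels were the target of both drugs. Esm1, a secreted protein of endothelial tip cells that VEGF induces, had levels of -2.93, -1.0, -1.12 and -2.26 with nintedanib, -4.04, -1.68, -2.70 and -1.97 with B20, and 0.31, -0.96 and 0.49 with vehicle. It differed by -2.16 ± 0.57 (4.47-fold lower; adjusted p 0.708), by -1.77 with nintedanib and -2.54 with B20. Nintedanib replicate 2 and vehicle replicate 2 were nearly level, and the T0 arrays, at -0.79 to 1.13, lay with vehicle. Esm1 was the 1 of 15 angiogenic endothelium genes that separated the groups, against 0.546% of all genes. Of the 15, 9 stood higher and 6 lower with a median of 0.10. Angpt2, which destabilises vessels, differed by -0.36 ± 0.28, Nid2, of the vessel basement membrane, by -0.66 ± 0.33 and Dll4, the Notch ligand of tip cells, by 0.18 ± 0.25.

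Of 28 general endothelial genes, 24 stood lower with a median of -0.29, and none separated the groups, against 0.546% of all genes. The median was -0.14 with nintedanib and -0.44 with B20, and -0.16 and -0.66 on the slides of 8 and 3 arrays. The list mean was -0.64, 0.04, -0.30 and -0.40 with nintedanib, -0.63, -0.71, -0.46 and -0.89 with B20, and -0.15, -0.50 and 0.04 with vehicle. Nintedanib replicate 2 stood level with the highest vehicle array. Esam, a junction protein, differed by -0.53 ± 0.26, Tie1, a receptor of the angiopoietin system, by -0.57 ± 0.32 and Pecam1 by -0.08 ± 0.18. Fibroblast and matrix genes leaned the same way (19 of 20 lower, median -0.26, but -0.09 and -0.66 on the slides of 8 and 3 arrays).

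The genes of the drug targets themselves were read next. The 23 ligands and receptors had a median of 0.01, with 12 higher and 11 lower. None separated the groups, against 0.703% and 0.546% of all genes. At those shares a list of this size would mostly have none. Vegfa, the ligand that B20 binds, had levels of 2.79, 1.90, 1.04 and 1.45 with nintedanib, 2.28, 1.99, 1.94 and 0.96 with B20, and 1.44, 0.44 and 1.36 with vehicle, a difference of 0.72 ± 0.41 with a 95% interval of -0.17 to 1.60. Its difference was 1.06 on the slide of 8 arrays and -0.15 on the slide of 3. Kdr, its main signalling receptor, differed by 0.07 ± 0.24 (95% interval -0.44 to 0.59), while its probes ranged over -0.66 to 0.07. Flt1, the other VEGF receptor, differed by -0.19 ± 0.39, Pdgfrb by -0.13 ± 0.23 and Fgfr1 by 0.07 ± 0.30. Vegfc, a ligand of lymphatic vessels, differed by -0.46 ± 0.21 and Fgfr3 by -0.45 ± 0.25, with Fgfr3 probes at -0.45 and 0.01.

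Hypoxia and glycolysis genes stood higher more often than the 52.6% of all genes, with small medians. Of 24 hypoxia response genes, 19 stood higher with a median of 0.21, which was 0.31 on the slide of 8 arrays and -0.25 on the slide of 3. Only Ppp1r3c, a glycogen-targeting subunit of protein phosphatase, separated the groups in that list, with levels of 1.95, 1.83, 2.02 and 2.25 with nintedanib, 3.14, 1.84, 2.05 and 2.06 with B20, and 1.82, 1.45 and 1.81 with vehicle, a difference of 0.45 ± 0.30. Bnip3, a mitophagy receptor, differed by 0.86 ± 0.41, Car9, the carbonic anhydrase of hypoxic cells, by 0.08 ± 0.37 and Slc2a1, the glucose transporter GLUT1, by 0.12 ± 0.23. Of 23 glycolysis genes, 17 stood higher with a median of 0.17 and none separated the groups. Among all genes, 0.703% stood higher without overlap, and the counts of both lists are to be read beside that share. Pgk1 and Tpi1, enzymes of the pathway, differed by 0.58 ± 0.27 and 0.40 ± 0.20, Hk2 by 0.47 ± 0.49, Ldha by 0.17 ± 0.16 and Pdk1, which restrains pyruvate entry, by 0.12 ± 0.17.

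The mitochondrial lists had pooled medians near 0. The median was 0.05 over 66 OXPHOS subunits, -0.14 with nintedanib and 0.23 with B20. Among all genes, 0.546% stood lower without overlap. Ndufs1, a complex I subunit, was the 1 that separated the groups, with levels of 3.88, 4.29, 4.05 and 4.18 with nintedanib, 4.33, 4.31, 4.33 and 4.34 with B20, and 4.40, 4.44 and 4.40 with vehicle, a difference of -0.20 ± 0.18. The B20 arrays of Ndufs1 lay just below vehicle and the nintedanib arrays farther. The median was -0.04 over 20 fatty acid oxidation genes (-0.12 with nintedanib, 0.15 with B20) and -0.03 over 9 ketone body genes. Cpt1a, which admits fatty acids to mitochondria, differed by -0.33 ± 0.29 and Bdh1, a ketone body enzyme, by -0.12 ± 0.21. Of 26 genes of pyruvate entry and the TCA cycle, 9 stood higher with nintedanib and 18 with B20 (medians -0.06 and 0.08), and 13 with both drugs together. Cytosolic ribosomal protein genes differed by a median of 0.07, with -0.14 for nintedanib and 0.28 for B20, so the pooled value lay between opposite signs.

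**Figure D4:**
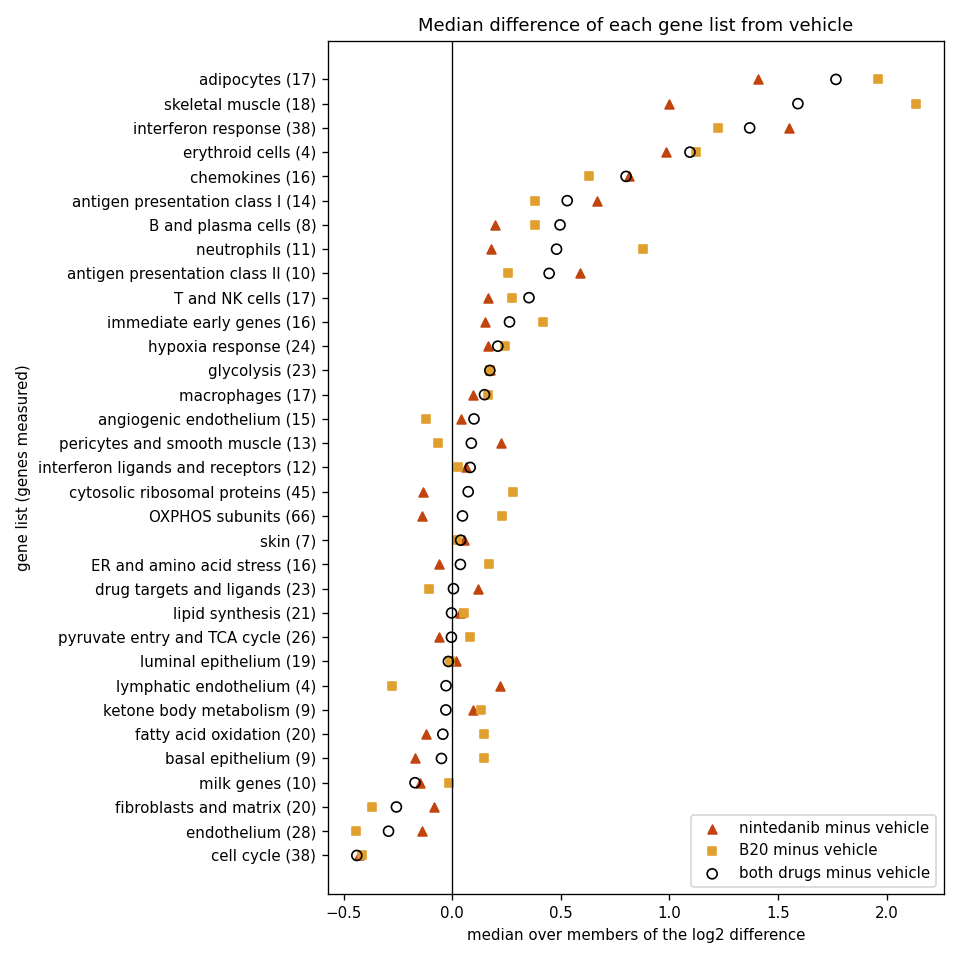
Median over the measured members of each gene list of the log2 difference from vehicle. Circles are both drugs together, triangles nintedanib and squares B20, all against the same 3 vehicle arrays, with the number of genes measured in brackets. The adipocyte list, at 1.77, the skeletal muscle list, at 1.59, and the interferon response list, at 1.37, lie farthest to the right, and cell cycle, at -0.44, lies farthest to the left.

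Outside these lists, the 15 lower genes of lowest p held few with a shared role. Gfra1, the co-receptor of the growth factor GDNF, had levels of -3.72, -4.50, -4.96 and -5.05 with nintedanib, -4.36, -3.65, -4.07 and -4.35 with B20, and -3.22, -2.60 and -3.26 with vehicle, and differed by -1.30 ± 0.29 (adjusted p 0.534). It was dim, and its difference after normexp was -0.44. Frmd4a, a scaffold of epithelial polarity, had levels of 0.37, 0.58, 0.18 and 0.62 with nintedanib, 0.80, 0.67, 0.95 and 0.76 with B20, and 1.08, 1.47 and 1.27 with vehicle, and differed by -0.66 ± 0.16 (adjusted p 0.654). For Frmd4a all nintedanib arrays lay below all B20 arrays, and all B20 arrays below vehicle. Golm1, a Golgi membrane protein, differed by -0.57 ± 0.15, with levels of 2.89 to 3.21 with nintedanib, 2.91 to 3.44 with B20 and 3.64 to 3.72 with vehicle. Ccny, a membrane-bound cyclin, differed by -1.38 ± 0.36 and Dysf, which reseals damaged membranes, by -0.64 ± 0.21. Ppp1r9a and Mtcl1 differed by -0.62 ± 0.18 and -0.57 ± 0.19. Ces2e and Hgfac differed by -0.68 ± 0.17 and -0.88 ± 0.26, and by -0.29 and -0.31 after normexp, and Hgfac was well above background on 6 of 8 drug arrays. Sec16b, which organises export sites of the endoplasmic reticulum, differed by -0.71 ± 0.19 on its brightest probe and by 0.02 on its other probe.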

How the data were processed

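Total RNA of dissected mammary tumours was labelled with Cy3 and hybridised to 15 Agilent 1-colour arrays, 1 per sample. Per the file headers, the arrays (design 028005, mm9 grid) came from a G2505C scanner, and Feature Extraction 10.7.3.1 subtracted background and detrended each array. The deposited spot intensity (processed signal) was used, which is not normalised between arrays, and the other deposited values used were flags of 0 or 1 for spots well above background, saturated or outlying. The authors' deposited table of log2 values, of which no header states the method, matched normexp with quantile normalisation (offset 50) at an r of at least 0.99996 on every array. Its scale and direction follow from that match, and genes were not centred.

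Control and outlier spots were left out, spots of a probe were averaged, 82 values without a usable spot stayed missing, and no spot was saturated. Log2 signals were scaled by subtracting the 75th percentile of the array. Each probe kept had at least 3 of the 15 arrays well above background, and the brightest probe stood for its gene. Names came from matching accessions to a RefSeq mouse gene table (GRCm38.p6), which named 26050 of 55681 probes. A model of 4 group means was fitted to all 15 arrays with limma 3.58.1 in R 4.3.3, with the contrast of the mean of both drugs against vehicle, two-sided tests and Benjamini-Hochberg adjustment over 28029 genes. T0 arrays enter for the spread only. The fit was also run on simulated data with known shifts and independent noise for each gene. Its outcome is not given here and is not used for any result. The number of arrays limits the precision.

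Named genes were the 15 higher and 15 lower without overlap, with a symbol, above background on every array of the higher side and of lowest p, up to 4 non-overlapping members of each list (or 2 of lowest p), and 13 genes of vessels and metabolism. Other list members are named for their role, and any further gene was chosen after its values were seen. The comparison, members and lists were chosen with earlier results of these data known. Some genes are not reported here.

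Alternatives were normexp with quantile normalisation, on the median spot signal because no mean signal column was in the files used here, the authors' values, other scalings, filters and probe rules, slide and replicate number as blocks, fewer arrays or groups in the fit, array weights and leaving out each array. Replicate numbers occur in every group, but deviations of same-numbered arrays correlated at -0.24 to 0.25, so the numbers were not taken as pairs.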

Additional observations from a re-analysis of the deposited data

Results flagged for a closer look

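Each value below is the distance of 1 array from the nearest of the other 3 in its group, as a share of the whole range of the group. Of 328 groups of 4 arrays checked, 20 stood out, and chance flags about 1 in 20 groups. Among interferon response genes, 5 stood out on nintedanib replicate 1. Ifih1 (share 0.985; level 2.74 against 2.13 to 2.14), Irgm1 (share 0.925; level 3.42 against 2.89 to 2.93), Ifit1 (share 0.895; level 2.98 against 1.88 to 2.0) and Gbp2 (share 0.884; level 2.88 against 2.31 to 2.38) were high there, and Isg20 was low (share 0.879; level 3.60 against 3.87 to 3.91). The median difference of the list was 1.29 without that array, against 1.37 with it. Tgtp2, an immune GTPase, was high on B20 replicate 4 (share 0.948; level 1.97 against 0.86 to 0.92). Of the replication and mitosis genes, Cdc25a was low on B20 replicate 1 (share 0.937; level 0.60 against 1.14 to 1.18) and Ncaph high on B20 replicate 3 (share 0.891; level 2.59 against 2.03 to 2.09). Among vessel genes, Tie1 stood out high on nintedanib replicate 2 (share 0.841; level -1.28 against -2.14 to -2.01) and low on B20 replicate 4 (share 0.875; level -3.66 against -2.79 to -2.66), and Flt1 stood out high on nintedanib replicate 2 (share 0.905; level 1.27 against 0.25 to 0.35). Ppp1r3c was high on B20 replicate 1 (share 0.835; level 3.14 against 1.84 to 2.06), and Arg1, a macrophage arginase, was high on B20 replicate 2 (share 0.834; level 3.59 against 1.33 to 1.71). Foxa1, a luminal transcription factor, was low on B20 replicate 2 (share 0.875; level -4.38 against -1.13 to -0.66). Krtdap, a skin keratinocyte gene, was high on nintedanib replicate 1 (share 0.899; level -2.25 against -5.17 to -4.88).

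Of the list means, lymphatic endothelium was high on B20 replicate 1 (share 0.832; mean -1.32 against -2.31 to -2.14), and ketone body metabolism was low on B20 replicate 4 (share 0.933; mean 0.38 against 0.68 to 0.70). Milk genes were high on nintedanib replicate 2 (share 0.956; mean 4.36 against 2.34 to 2.43). Basal epithelium (share 0.868; mean 1.44 against 0.57 to 0.69) and skin (share 0.831; mean -1.25 against -4.15 to -3.65) were high on B20 replicate 3.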

How the results depend on the processing

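With array weights limma called 11 genes between both drugs and vehicle in place of 0 (lowest adjusted p 0.0337), 9 of them with a symbol: Gm4951, Ifit3, Ifit3b, Iigp1, Oas1a, Oas2, Trim30a, Ubd and Xaf1. Leaving out each array gave 0 to 4 calls: 1 without vehicle replicate 1 (Gbp2b, 2.68, adjusted p 0.0478) and 4 without T0 replicate 4 (Oas1a, Oas1f, Xaf1 and an unnamed transcript). The calls between nintedanib and B20 ranged over 0 to 1, the 1 being an unnamed transcript without vehicle replicate 1. The other settings run kept both counts at 0, among them the replicate block, which called 0 in each comparison and is not read as a pairing. The 197 higher genes without overlap became 916 and the 153 lower genes 556 on the slide with 8 arrays only, and leaving out each array gave 223 to 664 higher and 168 to 559 lower, since fewer arrays leave fewer to overlap. The higher count was 547, 590 and 664 without vehicle replicates 1, 2 and 3, and the lower count 559, 537 and 361, with 310 without B20 replicate 2. Of the 197 and 153 genes, 117 and 97 also separated the groups after normexp, 115 and 92 in the authors' values, 153 and 108 after quantile normalisation and 134 and 91 after median scaling. Counted anew, higher and lower genes were 155 and 187 after normexp and 151 and 174 in the authors' values. They were 153 and 164 after median scaling and 186 and 179 after quantile normalisation. With probes averaged they were 214 and 159, and with no filter on dim probes 222 and 181. With probes well above background on all 11 arrays they were 137 and 137. Which direction held more genes thus depended on the setting. Each vehicle array weighs more than a drug array, with 3 against 8. The endothelium median was -0.66 within the slide with 3 arrays. It was -0.45 to -0.21 on leaving out each array, and those of the interferon response and cell cycle lists were 1.19 to 1.62 and -0.48 to -0.39. Of 131 genes, 117 kept their direction under all settings run. Kdr turned to -0.29 with the mean of probes and -0.031 with the replicate block, Isg20 to 0.060 with the mean of probes, Flt1 to 0.17 and Gins2 to -0.085 on the slide with 8 arrays, and Gins2 to -0.040 with array weights. Leaving out each array turned 13 genes, each of them without 1 of the vehicle arrays, and Car9 and Kdr also without a drug array, with the lowest and highest values -0.16 and 0.31 for Kdr, -0.44 and 0.14 for Flt1, -0.25 and 0.058 for Pdgfrb, -0.21 and 0.37 for Fgfr1, -0.072 and 0.33 for Slc2a1, -0.12 and 0.30 for Car9, -0.24 and 0.089 for Bdh1, -0.56 and 0.050 for Cd79a, -0.16 and 0.46 for Dll4, -0.12 and 0.50 for Gins2, -0.032 and 0.17 for Krt18, -0.16 and 0.069 for Pcna, and -0.20 and 0.088 for Pecam1. The cause of these turns was not tested. Dim probes depend on the background correction: after normexp the differences were 0.52 for Oas3, 0.51 for Herc6, 0.55 for Cd3g, 0.22 for Zap70, -0.38 for Nid2, -0.33 for Tie1, -0.23 for Angpt2, 0.77 for Orm1, 0.70 for Orm2 and 0.70 for Trarg1, each over 1.5 times smaller than reported.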

Other observations

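Some other higher genes, chosen after their values were seen, are known for glycogen or fat handling. In the lists nearest to this, 10 of 21 lipid synthesis genes stood higher and 11 lower, with 1 gene higher without overlap. Every one of 17 adipocyte genes overlapped. Among all genes, 0.703% stood higher without overlap. Gys2, the glycogen synthase of liver and fat, had levels of -3.36, -2.92, -0.94 and -0.80 with nintedanib, -1.26, -2.36, -1.59 and -3.10 with B20, and -7.44, -6.46 and -4.00 with vehicle, a difference of 3.92 ± 0.83 (adjusted p 0.418 with limma). It was well above background on 1 of the 3 vehicle arrays, its difference after normexp was 1.20, and the T0 arrays stood at 0.12 to 3.20. Scd1, the desaturase of fatty acid synthesis, had levels of 4.21, 4.43, 4.66 and 5.55 with nintedanib, 5.20, 3.82, 4.71 and 3.81 with B20, and 3.60, 3.79 and 3.75 with vehicle, a difference of 0.84 ± 0.37, and T0 stood at 6.09 to 7.57. Pygl, the glycogen phosphorylase of liver, differed by 0.96 ± 0.62 and Trarg1, a regulator of glucose transporter traffic in fat, by 1.73 ± 0.66. The acute-phase proteins Orm1 and Orm2, close copies of each other, differed by 2.12 ± 0.62 and 1.46 ± 0.51. All of these separated the drug from the vehicle arrays. The adipocyte list mean was 0.16 to 2.75 in the 8 drug arrays, -0.91 to 0.52 in the 3 vehicle arrays and 3.23 to 5.96 in T0. Gys2 and that list mean both stood, by group, lowest with vehicle and highest in T0. The part of fat tissue in the levels of these genes was not tested.

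Apoc1, an apolipoprotein of macrophages and liver, had levels of 6.14, 5.88, 6.29 and 6.42 with nintedanib, 5.47, 6.02, 5.96 and 5.82 with B20, and 4.50, 5.19 and 4.49 with vehicle, a difference of 1.27 ± 0.26 (adjusted p 0.333 with limma). Its T0 levels, 5.46 to 6.69, lay with the drug arrays. Over the 197 higher genes, the T0 mean lay between the drug and vehicle means for 91, below both for 49 and above both for 57. Over the 153 lower genes it lay between them for 77, below both for 37 and above both for 39.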
